A study of Monodelphis domestica and Mus musculus with 26 samples.

Results

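Cells carrying endothelial genes were selected from dissociated whole testes of mouse (Mus musculus) and gray short-tailed opossum (Monodelphis domestica). A barcode was kept when it held at least 1000 counts and 500 genes. A kept cell was selected when its summed counts of the endothelial genes PECAM1, CDH5, VWF, TEK, TIE1, KDR, EGFL7, ESAM and EMCN reached 2.5 and those of the steroid synthesis genes CYP17A1 and CYP11A1 stayed below 1.5. This rule took 449 of 47192 kept cells, namely 165 of 25445 in mouse and 284 of 21747 in opossum. Mouse replicates 1, 2 and 3 held 83, 67 and 15 selected cells, and opossum replicates 1, 2 and 3 held 70, 92 and 122. By symbol, the opossum matrices name 6 of the 9 marker genes (CDH5, EGFL7, TIE1, ESAM, KDR and TEK) and only CYP11A1 of the exclusion pair.

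The single-cell libraries, 3 per species, came from adult animals with no genotype or treatment in the labels. Mouse replicates 1 and 2 are labelled C57BL6/J, the protocol gives C57BL6/J males of 8 to 16 weeks, and mouse replicate 3 and the opossum libraries carry no strain label. A further 20 bulk RNA-seq libraries of opossum testis at 1, 2, 3 and 4 months and in adults were used for the levels of endothelial genes across age. Total counts were 2.27e+07 to 6.53e+07 per single-cell library, with medians of 1627 to 4497 counts per kept cell. Nothing in the labels says whether replicates are separate animals, so p-values measure the spread between these samples, which may be technical. Endothelial cells line blood and lymph vessels. Their growth and survival depend on VEGF acting through KDR and FLT1 and on angiopoietins acting through TEK. In the testis the vessels run through the interstitium between the seminiferous tubules, bringing gonadotropins in and carrying testosterone away.

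The labelled identity was checked on 30 endothelial genes that the rule did not use, of which the opossum matrices name 16. At least 2 of these genes were detected in 141 of 165 selected mouse cells (85.5%) and in 257 of 284 selected opossum cells (90.5%). The same held for 5.12% of the other kept cells in mouse and 7.69% in opossum, which serves as the background. Median depths were 2626 counts in selected and 3296 in other mouse cells, and 2637 against 1914 in opossum. A smaller set of barcodes went against the label. In 25 mouse and 17 opossum cells the selection genes made up less than 0.03% of all counts, at median depths of 40548 and 28679 counts. Their level in CPM (counts of a gene summed over the cells and scaled to the same total for every class) was 0 for Cldn5 and 0 for Ptprb in mouse, against 6618 for the germ cell gene Ldhc. In opossum it was 0 for CD93 and 1074 for the meiotic gene SYCP1. Over all listed germ cell markers, however, their median share of a cell's counts was 2.09% in mouse and 0.121% in opossum. It was 2.49% and 0.471% in other kept cells. Ldhc was also at 1688 CPM in 128 mouse cells above 0.03%, those left unlabelled below. In mouse replicate 3, 1 of the 2 deep barcodes held 13.8 counts of the pericyte gene Rgs5. These deep barcodes held 69.2% of the selected cells' counts in mouse and 47.5% in opossum, most of all in replicate 1 of each species (76.8% and 71.4%). Counts over all genes are therefore given with and without them, while counts in lists and levels in single libraries include them unless stated. Summed over the endothelial genes outside the rule, the level was 3412, 6234 and 2566 CPM in mouse replicates 1, 2 and 3 with the deep barcodes and 14604, 11464 and 4774 without them. In opossum it was 1521, 2906 and 6397 with and 5081, 3281 and 6397 without them, so the order of the libraries turned, with replicate 1 the lowest only while they were included. Mouse replicate 3 also stood apart, with 15 selected cells. Mouse replicates 1 and 2 shared 76 cell barcodes, 0.97% of the smaller set.

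Selected cells, deep barcodes included, were a small share of kept cells in every library. The share was 1.02%, 0.855% and 0.158% in mouse replicates 1, 2 and 3 and 1.26%, 1.13% and 1.52% in the opossum replicates. All 3 opossum libraries lay above all 3 mouse libraries. The means were 0.678% ± 0.457 in mouse and 1.30% ± 0.196 in opossum (SD, n = 3 each), a difference of 0.624 percentage points (exact two-sided permutation test, p = 0.1, the smallest value that 3 against 3 libraries allow). The difference was smaller under some other settings. With selection genes required to sum to 5 or more it was 0.218 percentage points (exact permutation p = 0.3), and mouse replicates 1 and 2 lay above opossum replicate 2. With every cell thinned to 1000 counts it was 0.0780 percentage points (exact permutation p = 0.7), and with cells of at least 500 counts and 250 genes it was 0.257 (p = 0.5). With 1 library left out it lay between 0.364, without mouse replicate 3, and 0.795, without mouse replicate 1 (exact permutation p = 0.2 in each case). The 95% intervals in the plot of shares are exact binomial (Clopper-Pearson) and cover counting error only.

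**Figure D1:**
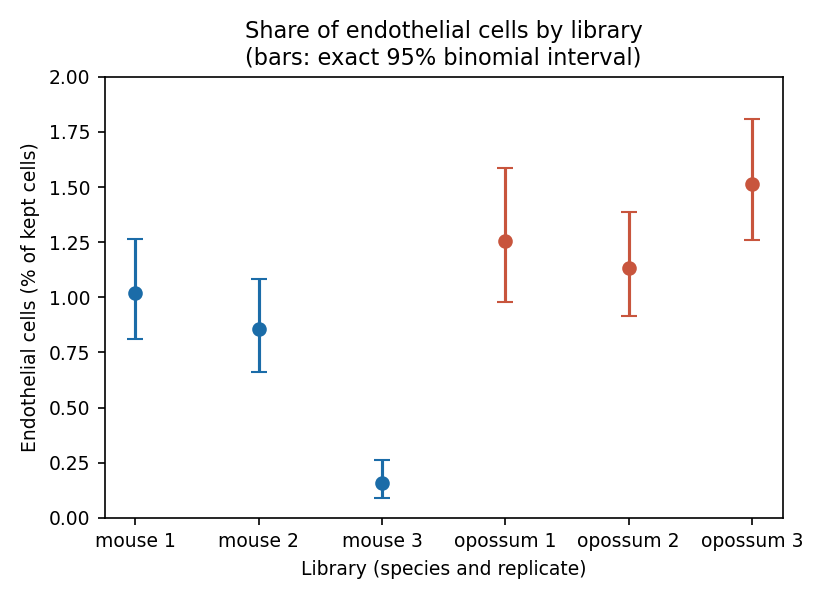
Percent of kept cells that were selected as endothelial (vertical axis) in each library (horizontal axis), with points for the library value and bars for the exact binomial 95% interval. Mouse replicate 3 sits at 0.158%, below the other 5 libraries, which lie between 0.855% and 1.52%.

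The selection genes, whose values are a description because they chose the cells, were unevenly detected. EGFL7, a secreted factor of the vessel wall, was detected in 117 mouse (70.9%) and 219 opossum cells (77.1%), more cells than any other selection gene in either species. ESAM, a junctional adhesion molecule, followed in mouse with 109 cells, and the angiopoietin receptor TEK with 152 and the VEGF receptor KDR with 151 cells in opossum. TIE1, an orphan receptor that pairs with TEK, was found in 25 mouse cells, and CDH5, the endothelial cadherin, in 49 opossum cells. A single selection gene carried 13 mouse cells (7.88%) and 42 opossum cells (14.8%). Near the threshold, selected cells with sums under 3 were set beside unselected cells with sums from 2 to under 2.5. Counts are fractional, and the lowest sums of selected cells were 2.66 in mouse and 2.67 in opossum. The 2 ranges therefore need not hold like cells, and the values are a description. In mouse 44 cells just inside held a mean of 0.552% of their counts in endothelial genes outside the rule, against 0.0154% in 10 cells just outside. In opossum the values were 0.352% in 82 cells inside and 0.0947% in 9 cells outside. The inside values differed by library: they were 0.0892% in 15 cells, 0.264% in 22 cells and 0.482% in 45 cells of replicates 1, 2 and 3, and in replicate 1 the only cell outside, at 0.119%, was higher. In mouse the inside values were 0.310% in 25 cells, 1.01% in 14 cells and 0.497% in 5 cells.

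**Figure D2:**
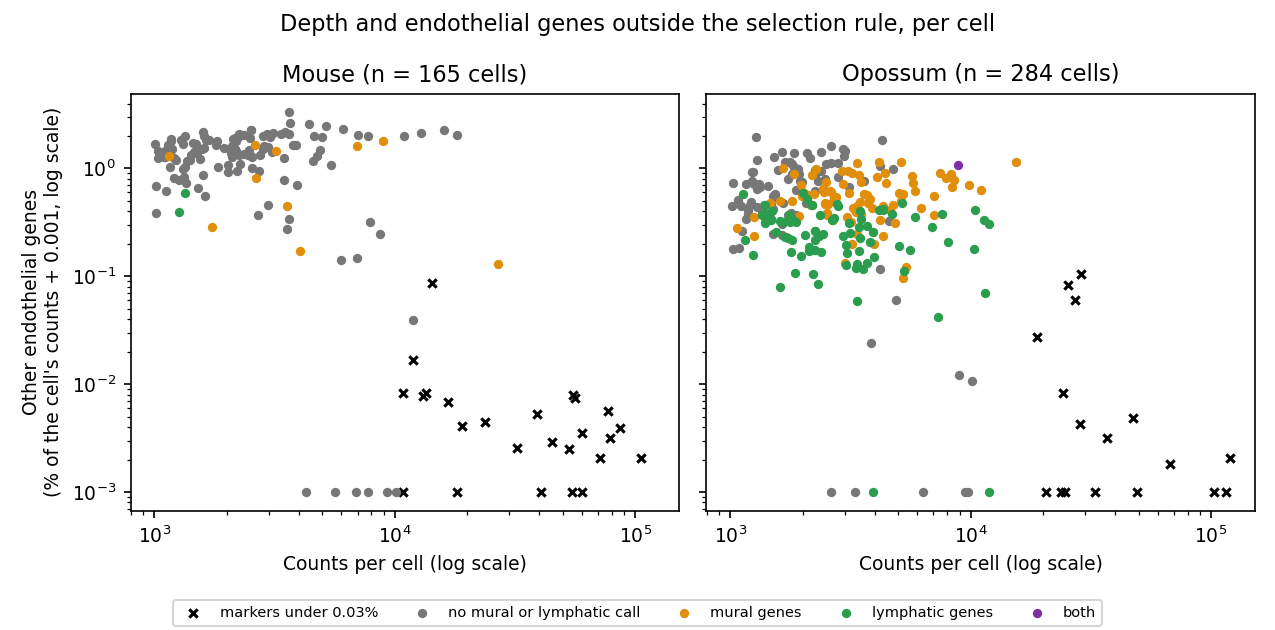
Each point is 1 selected cell, placed by its counts (horizontal, log scale) and by the percent of its counts in endothelial genes outside the selection rule plus 0.001 (vertical, log scale). Crosses mark the 25 mouse and 17 opossum cells with selection genes under 0.03% of counts, which lie to the right and mostly at the bottom; colours mark cells with mural or lymphatic genes.

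The selected cells included cells with genes of lymphatic vessels and of the vessel wall, in different numbers by species and library. Cells above 0.03% were labelled lymphatic when CCL21 (Ccl21a in mouse), RELN, FLT4, LYVE1, MMRN1 and PROX1 summed to 3 counts or more, and mural when RGS5, PDGFRB, ABCC9, NOTCH3, KCNJ8 and CSPG4, genes of pericytes and vascular smooth muscle, did. This division was chosen after the values were seen and is given without a test. Of 267 opossum cells, 85 (31.8%) were lymphatic, 88 (33.0%) mural, 93 (34.8%) neither and 1 both. Of 140 mouse cells, 2 were lymphatic, both from replicate 3, 10 were mural and 128 were neither. Opossum replicates 1, 2 and 3 held 23, 43 and 19 lymphatic, 23, 34 and 31 mural, and 8, 13 and 72 unlabelled cells. Unlabelled cells were the largest subset in replicate 3 and the smallest in replicates 1 and 2. Mural counts also reached 3 in 2.32% of the other opossum kept cells (0.927%, 1.13% and 4.50% in replicates 1, 2 and 3, so mostly in replicate 3) and lymphatic counts in 0.909%. Doublets were not removed. The 8% of kept cells with the highest Scrublet doublet scores held 7 of the 15 selected cells of mouse replicate 3, including both lymphatic ones. Among opossum cells, 7 mural and 4 lymphatic cells were in that 8% of their library. The part of doublets in the mural cells was not tested.

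Genes that did not define the lymphatic label differed along with it in opossum. The levels are pooled over libraries, and 72 of the 93 unlabelled cells came from replicate 3. LPL, the lipase that frees fatty acids from lipoproteins, was at 298 CPM in lymphatic cells, 5.74 in mural and 0 in unlabelled cells. NRP2, a co-receptor for the lymphatic growth factor VEGFC, was at 973, 102 and 66.4 CPM. The blood vessel receptor FLT1 was low where LPL was high, with 0 CPM in lymphatic cells against 2340.3 in mural and 1961 in unlabelled cells. In replicates 1, 2 and 3 FLT1 was at 0 CPM in lymphatic cells throughout, at 2578, 1789 and 2728 in mural and at 1077, 587 and 2554 in unlabelled cells. CD93, a lectin-like receptor of endothelium, was at 11.8 CPM against 1195 and 1219. The transcription factor ERG was found in all 3 subsets, at 500.1, 410.4 and 526 CPM pooled over libraries, but its order changed with the library: in replicates 1, 2 and 3 it was at 673, 429 and 275 CPM in lymphatic cells and 484, 189 and 632 in unlabelled ones. Mural cells also held the smooth muscle genes MYH11 at 3561 CPM and TAGLN at 1277, beside FLT1, CD93 and ERG. The unlabelled mouse cells carried Cldn5 at 5065 CPM and Ptprb at 684.

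**Figure D3:**
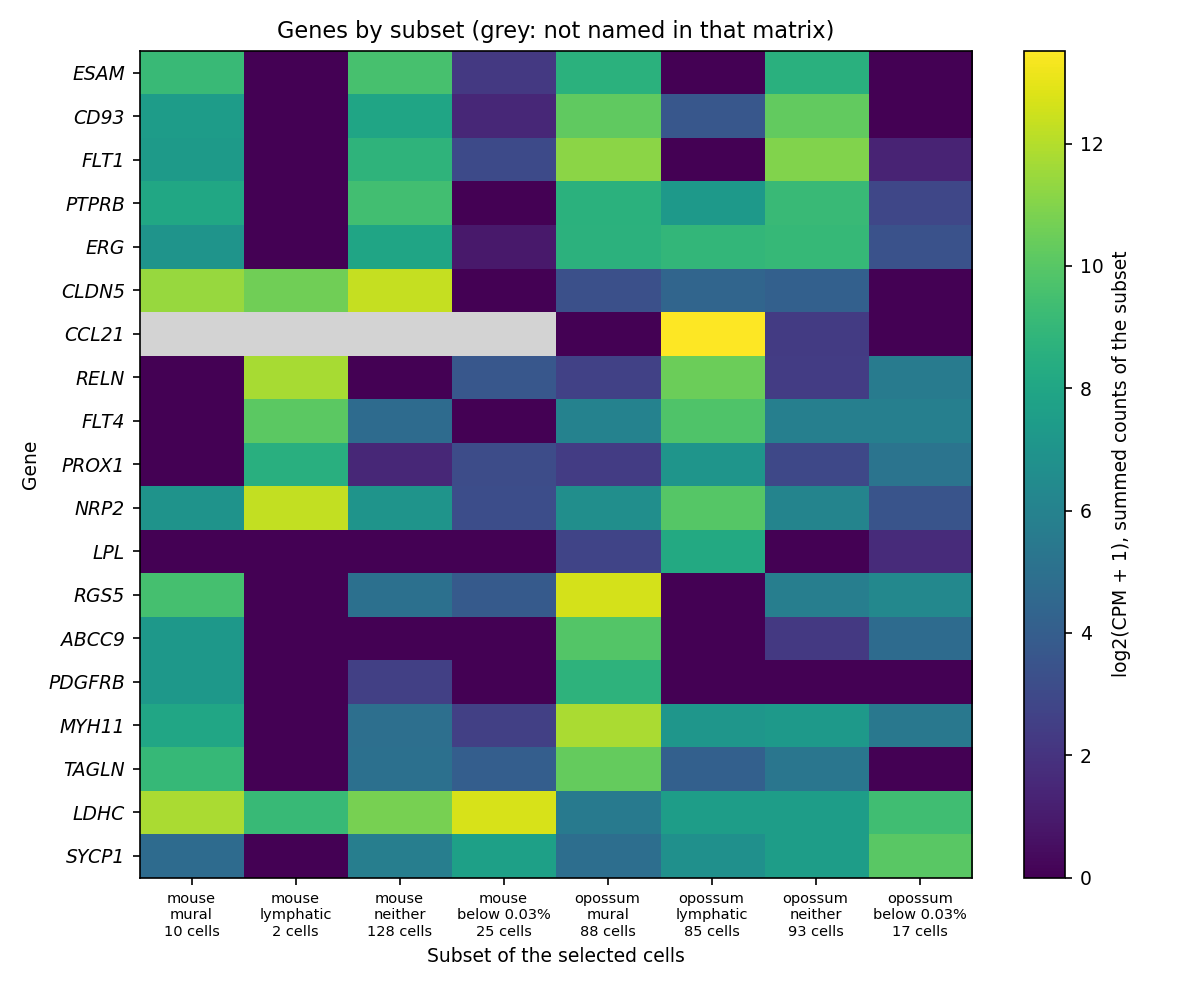
Level of each gene (rows) as log2(CPM + 1) of summed counts in each subset of the selected cells (columns, with the number of cells), on a colour scale from dark (0) to yellow. Opossum lymphatic cells are bright for CCL21 and dark for FLT1, opossum mural cells are bright for both RGS5 and FLT1, and the column of 2 mouse cells rests on very few counts.

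In mouse, many genes of vessel identity, signalling, barrier and matrix were higher in the endothelial cells than in the other kept cells. Of 18750 genes tested, 1732 (9.24%) passed an adjusted p under 0.05 with a log2 difference of at least 1 (edgeR quasi-likelihood test on summed counts, library as block), 1185 higher (6.32%) and 547 lower. Among the endothelial genes outside the rule 28 of 29 tested were higher and 0 lower, with a median log2 difference of 5.87 where all genes had -0.32. Plvap, a fenestral diaphragm protein, was the member that did not pass. Without the deep barcodes 4822 genes passed (26.3%), 2522 higher (13.7%) and 2300 lower (12.5%), and the median of the endothelial genes was 7.16. Leaving out 1 replicate moved the count to between 553 and 1460. The rule itself made this contrast, so these counts and differences, in mouse and in opossum, describe the selected cells and are not evidence of their identity.

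Barrier and transport genes were among the highest. Cldn5, the main tight junction claudin of endothelium, was at 1324, 2253 and 722 CPM in the endothelial cells of replicates 1, 2 and 3 and at 1.74, 1.98 and 1.23 CPM in other cells. Every endothelial value lay above every other value, which was a condition for naming the gene below, with a log2 difference of 9.36 ± 0.47 (SE). Slco1a4, an organic anion carrier, was at 225, 451 and 94.1 CPM against 0.448, 0.323 and 0.273 (log2 9.06 ± 0.56), and the drug efflux pump Abcb1a at 169.8, 247 and 105 against 0.332, 0.19 and 0.205 (log2 9.14 ± 0.58). Mfsd2a, the carrier of lysophospholipid-bound omega-3 fatty acids, was at 90.9, 136 and 52.3 CPM against 0.332, 0.266 and 0.66 (log2 7.63 ± 0.64). These genes are known for their high level in brain endothelium. The efflux transporter Abcg2 and the amino acid carrier Slc7a5 were higher by 3.61 ± 0.42 and 3.26 ± 0.44 on the log2 scale. The glucose carrier Slc2a1 was at 66.7, 183 and 0 CPM against 1.25, 0.533 and 2.32, so replicate 3 had no count while the remaining replicates lay above all other cells. Of the transport list as a whole, 5 of 11 tested genes were higher and 1 was lower, with a median of 0.32. The lower gene was the fatty acid receptor Cd36 (log2 -3.21 ± 1.05), whose call was lost in 8 of 15 other settings, among them DESeq2, no replicate block, leaving out replicate 1 or 2, and removal of the deep barcodes (log2 -1.74).

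Signalling genes followed. In the VEGF and angiopoietin list 8 of 14 tested genes were higher and 0 lower (median 3.11), among them the receptor Flt1 at 115, 186 and 157 CPM against 8.48, 3.39 and 8.83 (log2 4.27 ± 0.47) and Ptprb, the phosphatase that acts on TEK (log2 6.89 ± 0.51). The Notch list had 4 of 10 higher (median 1.61), with the arterial ligand Dll4 at 17.3, 57.6 and 20.9 CPM against 0.083, 0.019 and 0.159. In the BMP and TGF-beta list 10 of 15 were higher (median 3.22), including the BMP target genes Id1 (log2 5.46 ± 0.50) and Id3 (log2 5.39 ± 0.44). Of the endothelial transcription factors 17 of 21 were higher (median 3.64), such as the ETS factors Fli1 at 124, 196 and 62.7 CPM against 1.31, 0.419 and 1.48 and Erg at 59.8, 122 and 52.3 against 1.21, 0.457 and 3.98. Interferon and antigen presentation genes were higher in 10 of 12 cases (median 4.42), with the antiviral gene Ifitm3 at 625, 1189 and 251 CPM against 10.7, 8.92 and 4.19. Caveolae genes were higher in 8 of 10 cases (median 4.64) and basement membrane genes in 11 of 15 (median 3.37). Junction genes were higher in 5 of 12 cases (median 1.46), leukocyte adhesion and haemostasis genes in 7 of 12 (median 2.96) and small GTPase and actin regulators in 9 of 13 (median 2.82). With the deep barcodes removed, the counts higher were 10 of 14 for VEGF and angiopoietin, 6 of 10 for Notch, 12 of 15 for BMP and TGF-beta genes, 19 of 21 for transcription factors and 9 of 12 for junctions. They were 8 of 10 for caveolae, 10 of 12 for interferon, 13 of 15 for basement membrane, 8 of 12 for leukocyte adhesion, 10 of 13 for small GTPase and 4 of 10 for transport genes. Igfbp7, a secreted protein of the vessel matrix, reached 2176, 4184 and 763 CPM. Genes of the response to tissue dissociation, immediate early and heat-shock genes, were also higher in 14 of 17 tested cases (median 3.19), but their sum, most of which is the chaperone gene Hsp90aa1 in other cells, was 2525, 3476 and 5552 CPM in endothelial and 3358, 3497 and 2778 in other cells. Their part in the other differences was not tested.

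Naming required at least 20 CPM in endothelial cells and no overlap with other cells. Among the mouse genes that met this, the 15 with the largest difference were Dipk2b, Ctla2a, Bmx, Cldn5, Ptn, Abcb1a, Slco1a4, Myct1, Icam2, Mal, Aplnr, Gimap6, Ly6c1, Clec14a and Tmem252. Their log2 differences lay between 8.41 and 9.73. Dipk2b was at 37.2, 94.9 and 31.4 CPM in endothelial cells against 0.0498, 0.0571 and 0.0228. Ctla2a, an inhibitor of cathepsins, was at 250.3, 430.2 and 115 CPM against 0.315, 0.419 and 0.0455, and the growth factor gene Ptn at 236, 457 and 335 against 0.315, 0.419 and 0.683. Bmx, a non-receptor tyrosine kinase, was at 7.8, 44 and 31.4 CPM, and Aplnr, the apelin receptor, at 21.7, 40.7 and 10.5. Ctla2a, Ly6c1, Hba-a1 and Hbb-bs have near-identical copies, so how their reads were divided is uncertain. At the other end, 5 genes had no count in any endothelial cell: Hbb-bs and Hba-a1, which encode globins, Insl3 and Hsd3b1 of Leydig cells, and Mageb18. The call was lost in 6 of 15 other settings for Mageb18, in 2 for Hsd3b1 and in 1 for Hba-a1. Against a floor of 3 counts over the group, Hbb-bs was at least 54.3-fold lower and Insl3 at least 24.3-fold lower. In other cells Hbb-bs stood at 87.2, 133 and 97.6 CPM.

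Markers of other cell types were counted beside these differences. Pericyte and peritubular genes were higher in 8 of 12 tested cases in mouse, summing to 156, 521 and 1113 CPM in the endothelial cells of the 3 replicates and 47.2, 13.6 and 187 in other cells. With the deep barcodes removed, the pericyte sums were 664, 960.3 and 61.4 CPM, so replicate 3 was then the lowest and below its other cells. Germ cell markers summed to 48510.4, 35683 and 115094 CPM in the selected cells and 66436, 49114 and 69366 in other cells, and 6 of 22 were lower (14 with the deep barcodes removed). Immune markers summed to 590.0, 442 and 853 CPM in the selected mouse cells and 611, 472 and 494 in other cells, and 7 of the 12 were at 0 in the selected cells. Replicate 3 alone was above its other cells, and with the deep barcodes removed (336, 446 and 482 CPM) no replicate was. Of 10 platelet and red cell markers 9 were at 0. Among Sertoli markers, Wt1 (log2 4.10) and Clu (at 372, 609.8 and 136 CPM against 102, 39.1 and 63.5) were higher while 4 of 10 tested, Aard, Amhr2, Inha and Rhox5, were lower, which none was with the deep barcodes removed (0 of 9). The part of any of these cells in the result was not tested.

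The promoters of 2 named genes are shown because they differ in letters that ETS factors, the family of Erg and Fli1, are known to bind. Each is the 200 bases before the start of the canonical transcript (GENCODE annotation) in GRCm39, 5′ to 3′ on the gene's strand, with matches to AGGAAG or CGGAAG on either strand in capitals. Dipk2b lies on the minus strand (chrX:18327611-18327810) and Cldn5 on the plus strand (chr16:18595397-18595596).
Dipk2b: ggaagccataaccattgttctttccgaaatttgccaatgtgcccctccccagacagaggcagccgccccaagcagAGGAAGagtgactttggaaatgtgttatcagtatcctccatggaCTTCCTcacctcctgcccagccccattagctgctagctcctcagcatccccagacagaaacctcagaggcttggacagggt
Cldn5: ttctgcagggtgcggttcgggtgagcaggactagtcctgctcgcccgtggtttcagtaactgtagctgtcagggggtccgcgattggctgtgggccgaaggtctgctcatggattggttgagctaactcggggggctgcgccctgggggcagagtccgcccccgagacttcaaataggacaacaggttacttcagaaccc
Dipk2b held 2 matches and Cldn5 none. The share of promoters with a match was close to the background: 33.58% of 1099 promoters of genes higher in mouse endothelial cells held a match, 35.63% of 247 that were higher in both species, and 36.1% of 14118 tested genes. A match is a description of letters, not a bound site.

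In opossum, 3658 of 18448 genes passed (19.8%), 900 higher (4.88%) and 2758 lower in endothelial cells than in other kept cells. Among the endothelial genes outside the rule 14 of 15 tested were higher (median 4.97, all genes -0.33) and 1 was lower. The lower gene was PALMD, which encodes palmdelphin, at 14.2, 72.2 and 244 CPM against 176, 232 and 283, where replicate 3 overlapped the other cells. By subset PALMD was at 247 CPM in unlabelled, 58.9 in mural and 76 in lymphatic cells, pooled over libraries. Most unlabelled cells came from replicate 3, the library with the highest PALMD level, and the order was not tested within libraries. It did not pass with no replicate block (log2 -1.37, adjusted p = 0.24) or without the deep, mural and lymphatic cells (log2 -0.97, adjusted p = 0.65). Without the deep barcodes 4613 genes passed (25.4%, median of the endothelial genes 5.64), 1632 higher (8.98%) and 2981 lower (16.4%); without cells of lymphatic or mural label as well, 1361 did, a setting that also drops replicate 1, left with 8 cells and so under the minimum of 10. Without 1 replicate the count lay between 1945 and 4157.

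Blood and lymph vessel genes led the opossum list. CD93 was at 205, 445 and 1165 CPM in endothelial cells of replicates 1, 2 and 3 and at 0.393, 2.47 and 4.88 in other cells. The log2 difference was 7.75 ± 0.49, with no overlap, which was a condition for naming. ERG was at 168, 283 and 537 CPM against 1.67, 1.27 and 3.98 (log2 6.87 ± 0.45), and FLT1 at 419.5, 719 and 2147 against 8.31, 5.3 and 30.1 (log2 5.99 ± 0.50). CCL21, the chemokine by which lymphatic vessels draw in dendritic cells, was at 1848, 3981 and 897 CPM against 2.02, 18.7 and 25 (log2 7.27 ± 0.78), with replicate 3 the lowest. Without the lymphatic and mural cells, which removes the cells chosen by CCL21, its difference was -2.63. FLT4, the VEGFC receptor, was at 179, 343 and 155 CPM against 12.1, 13.8 and 4.19 (log2 4.25 ± 0.41), and RELN, a secreted glycoprotein, at 261, 430.0 and 194 against 7.38, 8.04 and 14.3. The lymphatic list had 5 of 6 tested genes higher (median 4.42), against 1 of 6 in mouse (median 0.59).

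Signalling and structural genes of opossum endothelial cells were also higher in part. The VEGF and angiopoietin list had 7 of 10 tested genes higher (median 2.32), the Notch list 5 of 10 (median 2.06), the BMP and TGF-beta list 9 of 13 (median 1.75) and the transcription factors 13 of 14 (median 3.49). JAG1 and JAG2, both Notch ligands, were higher by 2.47 ± 0.40 and 3.24 ± 0.45 on the log2 scale, and the arterial ligand EFNB2 by 5.16 ± 0.45. With the deep barcodes removed the counts were 9 of 10, 7 of 10, 10 of 13 and 14 of 14 for the VEGF, Notch, BMP and transcription factor lists, in that order. All 7 tested small GTPase and actin regulators were higher (median 2.56). Caveolae genes were higher in 3 of 8 cases (median 1.25), basement membrane genes in 7 of 10 (median 2.32), junction genes in 4 of 10 (median 1.23) and leukocyte adhesion genes in 7 of 9 (median 2.72). Interferon and antigen presentation genes were higher in 2 of 8, with CD74, the MHC class II invariant chain, lower at 9.47, 12 and 3.53 CPM against 125, 31.6 and 76.9. After removal of those barcodes caveolae genes were higher in 5 of 8, basement membrane in 8 of 10, junction in 6 of 10, leukocyte adhesion in 8 of 9 and interferon genes in 4 of 8 cases. COL4A1, a basement membrane collagen, was at 274, 845 and 1635 CPM against 81.8, 26.1 and 72.3, and SELE, the endothelial selectin that slows leukocytes, at 23.7, 36.1 and 31.8 against 0.639, 0.736 and 1.27. Among the transport genes SLC7A5 was lower, at 55.9, 27.1 and 77.7 CPM against 218, 340.2 and 487 (log2 -2.98 ± 0.41). The prostaglandin carrier SLCO2A1 was lower too (log2 -3.10 ± 0.62), while the glucose carrier SLC2A1 was higher (log2 3.86 ± 0.49).

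Other opossum genes with large differences were NPTX2, ADGRL4, XPNPEP2, PTPRB, GATA2, XIRP2, ITGB4, PTX3, LYVE1 and ELN, with log2 differences between 5.51 and 7.06. ELN, which encodes elastin, was at 129.7, 595 and 208 CPM against 2.71, 4.45 and 7.59, and the haematopoietic and endothelial factor GATA2 at 6.63, 18 and 42.4 against 0.344, 0.0884 and 0.265. In NPTX2 and LYVE1 replicate 3 was far below the other endothelial libraries, at 3.53 CPM in each. GREB1 had no count in selected cells and was at least 17.3-fold lower. HSPB6, SLC27A5, UGT2A1 and MAP1LC3C had log2 differences of -7.26, -6.67, -6.11 and -5.94. Pericyte markers were higher in 6 of 11 tested cases and summed to 1567, 5217 and 4885 CPM in the selected cells against 775, 426 and 987, and to 5089.9, 5895 and 4885 without the deep barcodes. Genes of the dissociation response were higher in 4 of 12 cases (10 of 12 without those barcodes) and summed to 1239, 3098 and 2004 CPM against 1051, 689 and 1058 in other cells, above them in all 3 libraries. Without those barcodes they summed to 4059, 3483 and 2004. Of 7 immune markers named in the opossum matrices only C1QA was at 0. The immune markers summed to 106, 162 and 100.5 CPM in selected and 359.6, 254 and 380.0 in other opossum cells. Without the deep barcodes the selected cells' sums were 367, 184 and 100.5, with replicate 1 then above its other cells. The part of these cells and of dissociation in the differences of other genes was not tested.

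Cells with stromal genes gave a comparison with a somatic class, but the selected cells still included the deep barcodes and carried germ cell genes. Germ cell markers summed to 48510, 35683 and 115094 CPM in selected mouse cells and to 31687, 25701 and 10674 in stromal ones. In opossum the sums were 10258, 9739 and 3183 CPM in selected cells and 1078, 2583 and 5352 in stromal ones. Without the deep barcodes the selected mouse cells were at 31946, 31768 and 54124 CPM, still above the stromal cells of each replicate. The selected opossum cells were then at 105, 1459 and 3183 CPM, below the stromal cells of each replicate. Cells with at least 5 counts of stromal genes and under 0.5 of the selection genes numbered 167, 232 and 162 in mouse and 408, 391 and 402 in opossum. The selection genes thus set both sides of this contrast. Differences of endothelial genes from stromal cells, in both species, describe the selected cells and are not evidence of their identity. In mouse 1008 of 7362 genes passed (13.7%), 266 higher (3.61%) and 742 lower in endothelial cells. The endothelial genes had 16 of 21 tested higher and 1 lower (median 5.12, all genes -0.06), the lower one being Thbd, which encodes thrombomodulin. With the deep barcodes removed 19 of 21 were higher and 0 lower. Interferon and antigen presentation genes summed to 1659, 3409 and 787 CPM in endothelial and 2111, 2299 and 714 in stromal cells. Leukocyte adhesion and haemostasis genes summed to 289, 527 and 256 against 835, 1170 and 501. Without the deep barcodes the endothelial sums of interferon genes were 7096, 6286 and 1501, above stromal cells in each replicate. Those of leukocyte adhesion genes were 1091, 964 and 469, above stromal cells in replicate 1 only. Slco1a4, Abcb1a, Ctla2a, Mal, Ptprb, Mecom and Gimap6 had no count in stromal cells. Against the floor of 3 counts over that group, Slco1a4 was at least 116-fold and Ptprb at least 85.7-fold higher in endothelial cells. Cldn5 was at 1324, 2253 and 722 CPM against 0, 2.47 and 2.07 (log2 9.70 ± 0.70). The proteoglycan gene Dcn, which was among the genes that chose the stromal cells, was at 1.73, 0 and 41.8 against 8309, 9939 and 1734. Fgl2, Dpep1, Ccn5, Entpd2, Mfap4, Efemp1 and Islr had no endothelial count, and Fgl2 was at least 586-fold lower. Of the caveolae and transcytosis genes 2 of 8 tested were higher (Mfsd2a and Ehd4) and 2 lower (Cav1 and Cavin1), with Cav1 at 19.9, 40.7 and 41.8 CPM against 117, 129 and 219.8. Neither Cav1 nor Cavin1 passed without the deep barcodes (log2 -0.91 and -0.75), without replicate 1 or 2, or with germ cell markers under 1% of counts. BMP and TGF-beta genes summed to 919, 1798 and 885 CPM in endothelial and 2439, 2221 and 1373 in stromal cells. Without the deep barcodes their endothelial sums were 3562, 3202 and 1609. With those barcodes removed 812 genes passed (12.2%), 360 higher (5.39%) and 452 lower (6.77%). Without replicate 1, 2 or 3 in turn the number of genes passing ranged from 191 to 2549.

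In opossum 470 of 9493 genes passed against stromal cells (4.95%), 170 higher (1.79%) and 300 lower. The endothelial genes had 8 of 13 tested higher and 0 lower (median 5.65, all genes 0.05), and the lymphatic genes 4 of 5 (median 6.16). After removal of the deep barcodes these were 11 of 12 and 5 of 5. Interferon and antigen presentation genes summed to 760, 1601 and 1989 CPM in endothelial and 2448, 2181 and 2096 in stromal cells. Without the deep barcodes the endothelial sums were 2609, 1809 and 1989, above stromal cells in replicate 1 only. BMP and TGF-beta genes summed to 764, 1423 and 2119 CPM against 1093, 1215 and 1128 in stromal cells. Without the deep barcodes their endothelial sums were 1834, 1570 and 2119. PTPRB, ADGRL4, PTX3 and ARAP3 had no stromal count, and PTPRB was at least 229-fold higher. CCL21 was at 1848, 3981 and 897 CPM against 0, 1.02 and 0 (log2 12.21 ± 0.79), CD93 at 205, 445 and 1165 against 0, 0 and 1.53 (log2 9.94 ± 0.63), and FLT4 at 179, 343 and 155 against 0.539, 6.12 and 1.53 (log2 6.40 ± 0.52). GRM3, a glutamate receptor gene, and XIRP2, an actin-binding protein gene, completed the 8 highest. NGFR, PLA2G2D, GREB1, CCBE1 and PRG4 had no endothelial count, with NGFR at least 77.1-fold lower. MGP, an inhibitor of calcification, was at 5.68, 0 and 10.6 CPM against 1785, 968 and 1687. The count rested on replicate 2: without it 0 genes passed in edgeR, while 1256 had an unadjusted p under 0.05 (DESeq2 was not run without that library). With the deep barcodes removed, 1578 genes passed (20.7%), 836 higher (11%) and 742 lower (9.74%).

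Genes higher in endothelial cells overlapped between the species. Of 8253 genes matched by symbol, tested in both and not used in the rule, 689 were higher in mouse endothelial cells and 575 in opossum, and 261 were higher in both, which is 37.9% of the mouse and 45.4% of the opossum genes. Opposite calls numbered 40 (higher in mouse, lower in opossum) and 3 (the reverse). Of 8193 genes tested without the deep barcodes, 1548 were higher in mouse, 989 in opossum and 582 in both, 37.6% of the mouse and 58.9% of the opossum genes, with 79 and 14 opposite calls. The 582 genes included ERG, FLI1, FLT1, FLT4, CD93, PTPRB, ADGRL4, MYCT1, SOX18, NOTCH1, NRP1, COL4A1, ID1 and SLC2A1. CLDN5 was among them too, but rested on few counts in opossum. They also included genes of mural cells (RGS5, PDGFRB, ABCC9, KCNJ8, NOTCH3, MCAM, MYH11 and TAGLN), the Sertoli gene WT1, and genes of the dissociation response (FOS, FOSB, JUN, JUNB, ATF3, EGR1 and IER2), whose part in the overlap was not tested. Across genes, which are not independent replicates, Spearman's rho of the log2 differences was 0.44 without the deep barcodes and 0.26 with them, and it is given as a description.

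**Figure D4:**
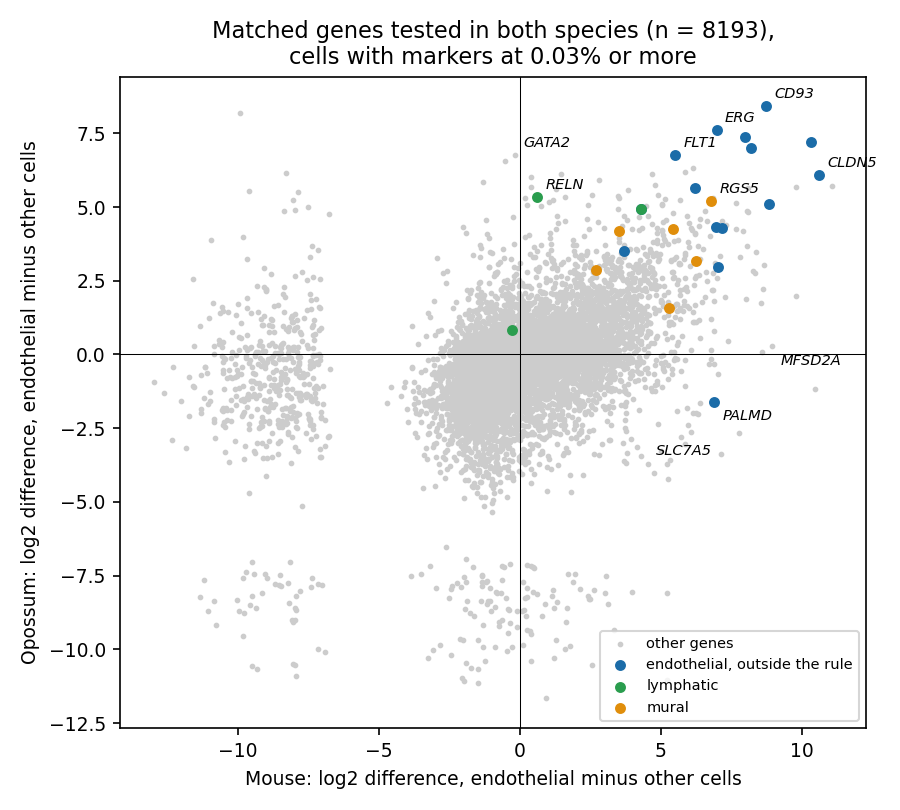
Each point is 1 matched gene, placed by its log2 difference between endothelial and other cells in mouse (horizontal) and opossum (vertical), without the deep barcodes (n = 8193 genes). Most endothelial genes lie at the upper right, PALMD and SLC7A5 lie to the right and below 0, and the separate bands at the far left and bottom hold genes with no count in the endothelial cells of that species.

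The size of the endothelial difference was then compared between species. Of 9730 matched genes, 1083 passed (11.1%), 202 with a larger difference in opossum (2.08%) and 881 in mouse (9.05%) (edgeR interaction). The balance turned without the deep barcodes, where 2038 passed (21.1%), 1462 larger in opossum (15.2%) and 576 in mouse (5.97%), and the median over all genes moved from -0.13 to 0.72. Single libraries moved it too: 616 were larger in opossum and 533 in mouse without mouse replicate 3, 377 and 321 without mouse replicate 1, and 300 and 342 without mouse replicate 2. Without the deep, mural and lymphatic cells, and so without opossum replicate 1, the split was 243 and 370. SLC7A5 separated the species with opposite signs. Its change from other cells to endothelial cells was 3.45, 4.73 and 2.05 (log2 of CPM + 0.5) in mouse libraries and -2.13, -3.82 and -2.83 in opossum libraries, an interaction of -6.42 ± 0.58 (adjusted p = 1.3e-25). PALMD had changes of 4.95, 5.85 and 5.15 in mouse and -3.77, -1.86 and -0.40 in opossum (-7.77 ± 0.67), and SLCO2A1 of 3.80, 5.31 and 5.47 and -3.05, -1.77 and -6.88 (-7.96 ± 0.82). For MFSD2A the interaction was -8.25 ± 0.86, for EDN1, which encodes the vasoconstrictor endothelin, -6.04 ± 1.17, and for CAVIN3, a caveolar coat protein gene, -5.43 ± 0.63. CLDN5 was higher in endothelial cells of both species and more so in mouse (-4.46 ± 0.85). In opossum it rested on few counts, at most 4 in any subset of cells of a library. Caveolae genes had 5 of 8 tested with a larger difference in mouse (CAVIN2, CAV2, EHD4, CAVIN3 and MFSD2A) and none in opossum (median -3.93), and 5 and 0 of 8 with the deep barcodes removed (median -3.27). In the other direction stood GATA2 (5.47 ± 0.77), SELE (4.90 ± 1.11), RELN (3.79 ± 0.61) and EFNB2 (3.34 ± 0.71).

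The 16 genes named for the largest interactions had no count in the endothelial cells of one species, so their fitted values are not bounds. PAQR6, KCNK10, DKK2, XPNPEP2, BDKRB2, NEB, GRM3 and FGL2 were relatively higher in opossum. For GRM3 the direction turned without the deep, mural and lymphatic cells (-3.23). For PAQR6, a progestin receptor family member, changes were -3.59, -4.34 and -3.46 in mouse libraries and 4.10, 5.60 and 4.64 in opossum. DKK2, a Wnt regulator, had -2.15, -2.44 and -3.00 and 3.41, 6.75 and 3.29. TMEM252, MAL, SLC28A2, CPLX2, TRPC6, SNCG, FGFR3 and GREB1 were relatively higher in mouse, with MAL at 7.61, 9.46 and 7.57 in mouse and -0.42, -1.64 and -1.20 in opossum. The absence of overlap between the changes of the 3 libraries of each species was a condition for naming these 16 genes, not a result. The call was lost in 5 of 18 other settings for NEB, 3 of 18 for FGL2 and 4 of 18 for SLC28A2.

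Endothelial cells of the species were also compared directly, with CPM taken over matched genes only. Here 2704 of 4495 genes passed (60.2%), 1368 higher in opossum (30.4%) and 1336 higher in mouse (29.7%), a background against which single genes are to be read. Without the deep barcodes 2050 of 4119 passed (49.8%), 1022 higher in opossum (24.8%) and 1028 in mouse (25%). Species and its annotation, 3′ ends and library preparation cannot be told apart in this comparison. CLDN5 was at 2708, 4326 and 1442 CPM in mouse and 10.2, 14.3 and 16.2 in opossum, with no overlap (log2 opossum minus mouse -8.39 ± 0.84, adjusted p = 5.6e-06). MFSD2A was at 186, 260.2 and 105 against 2.9, 0 and 16.2, and SLC7A5 at 367, 670.0 and 251 against 85.6, 42.8 and 119. HES1, a Notch target gene, was higher in mouse (log2 -3.54 ± 0.56), as was ID3 (-2.30 ± 0.61). In opossum FLT4 was higher at 274, 542 and 237 CPM against 14.2, 19.5 and 62.7 in mouse. COL4A1 was higher in opossum as well, at 419, 1337 and 2498 against 56.7, 71.5 and 62.7, and of the basement membrane list 7 of 10 tested were higher and 0 lower (median 2.42, all genes 0.14). RGS5, which marked the mural cells, was at 959, 4363 and 4024 CPM in opossum and 60.3, 163 and 293 in mouse. The make-up of the selected cells also differed between the species. Without the deep barcodes, 85 of 267 opossum cells were lymphatic and 88 mural, against 2 and 10 of 140 mouse cells. FLT4 was among the genes that chose the lymphatic cells. Pooled over libraries, with CPM over all genes, opossum FLT4 was at 886 in lymphatic, 63.1 in mural and 56 in unlabelled cells. In unlabelled mouse cells it was at 25.6. The part of this make-up in the differences of FLT4 and other genes was not tested.

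The named genes of the direct comparison were high in opossum for S100A4, MED12L, KRT18, NTRK2, TMEM239, GRM3, GPR161 and NEBL, none of which had a count in mouse endothelial cells. S100A4, a calcium-binding protein gene, was at 2130.4, 5538 and 1122 CPM and at least 668-fold higher. Those high in mouse were FABP9, GSG1, CRISP2, CREB3L4, BSPRY, DYNLT5, MAL and LIMD2. FABP9, GSG1 and CRISP2 are sperm or spermatid genes, and of the germ cell markers 9 of 13 tested were lower in opossum (median -2.28). Germ cell markers summed to 31946, 31768 and 54124 CPM in the mouse and 105, 1459 and 3183 CPM in the opossum endothelial cells left after removal of the deep barcodes. The mouse sums run over 22 markers and the opossum sums over the 14 named in its matrices, so they cover different genes and their sizes are not compared. Their part in the species differences was not tested.

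Bulk libraries of opossum testis gave the level of endothelial genes from 1 month to adulthood. In the polyA libraries, 2 at 1 month and 6 in adults, 8376 of 18890 genes passed (44.3%; limma on log2(TPM + 1)), 5463 higher (28.9%) and 2913 lower (15.4%) in adults, with a median over all genes of 0.65. In bulk tissue fewer cells of a type and less RNA per cell cannot be told apart. Germ cell markers were higher in 11 of 12 tested cases (median 5.03), and their part in the endothelial values, which are shares of all transcripts, was not tested. The 1-month libraries held 6.95 and 6.54 aligned gigabases and the adult ones 4.30 to 5.496, and the part of depth was not tested. The endothelial genes outside the rule had 1 of 16 tested higher (PALMD) and 3 lower (ERG, ADGRL4 and MYCT1), with a median of 0.05.

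Some listed genes were lower in adults. Of all genes tested 15.4% were lower and 28.9% higher, so the counts below are to be read against these shares. LYVE1, a hyaluronan receptor of lymphatic vessels and macrophages, was at 29.7 and 34 TPM at 1 month, and adults had a lowest value of 0.151, a median of 0.473 and a highest of 1.2 TPM. The groups did not overlap, and the log2 difference was -4.46 ± 0.45 (SE; adjusted p = 1.9e-06). ERG was at 15.2 and 23.4 TPM at 1 month, and in adults it had a lowest value of 0, a median of 3.42 and a highest of 6.73 (-2.51 ± 0.88, adjusted p = 0.029). MYCT1 and the adhesion receptor gene ADGRL4 were lower too, by log2 differences of -2.60 ± 0.93 and -2.65 ± 0.76, as were the broadly expressed factor TCF4 (-3.38 ± 0.57) and CAV1 (-1.92 ± 0.73). Of the endothelial transcription factors 4 of 13 were lower and 0 higher (median -1.28). CLDN5 did not pass: 3.2 and 2.9 TPM at 1 month lay within the adult range, a lowest value of 0.538, a median of 5.96 and a highest of 21.9. CCL21 (-2.41 ± 0.99, adjusted p = 0.057) and FLT4 (2.54 ± 1.07, 0.062) did not pass either, although CCL21 passed in 3 and FLT4 in 4 of 14 other settings.

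A few listed genes were higher in adults. PALMD was at 10.7 and 10.1 TPM at 1 month, and adults had a lowest value of 65.1, a median of 128 and a highest of 372 (3.60 ± 0.52, adjusted p = 6.0e-05), with no overlap. SLC7A5 was at 2.21 and 3.21 TPM, and adults had a lowest value of 16, a median of 78.1 and a highest of 113 (3.92 ± 0.72). In the single-cell data SLC7A5 was lower in endothelial than in other opossum cells, and the same call for PALMD depended on the setting. At 3 months PALMD lay between 341 and 424 TPM in 4 libraries, while LYVE1 was at 1.17 TPM in the polyA library of 2 months. TIE1, a selection gene, was higher by 1.85 ± 0.61 and the lymphatic regulator PROX1 by 2.54 ± 0.75. The adult ranges of TIE1 and PROX1 reached down to 0.524 and 0.871 TPM. TIE1, PROX1, ERG, MYCT1, ADGRL4 and CAV1 did not pass when either 1-month library was left out, while LYVE1, TCF4, PALMD and SLC7A5 did. Over all 14 other settings the call was lost in 7 for CAV1, 6 for MYCT1, 5 for ERG and 3 each for TIE1, PROX1 and ADGRL4.

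**Figure D5:**
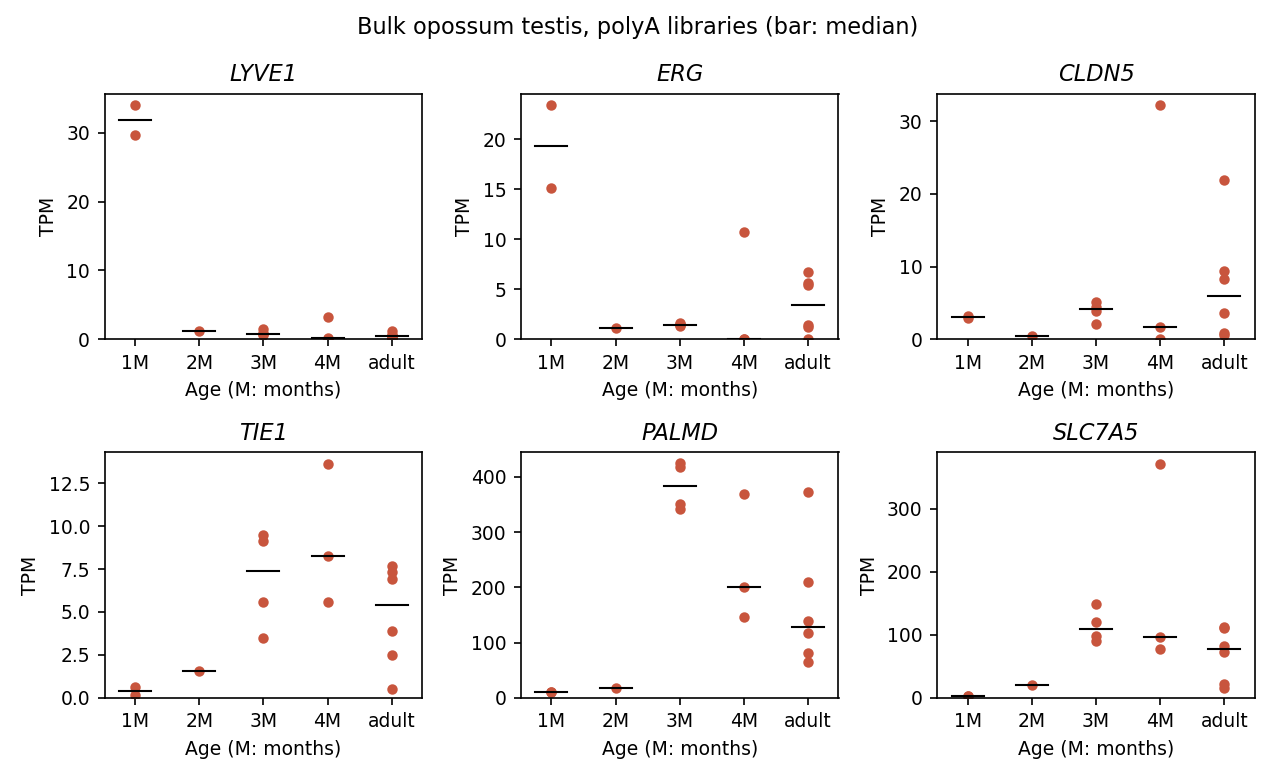
TPM of 6 genes (vertical axis, from 0) in each polyA bulk library of opossum testis by age (horizontal axis), with points for libraries and bars for the median. LYVE1 and ERG are highest in the 2 libraries of 1 month, while PALMD and SLC7A5 are lowest there.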

How the data were processed

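Single-cell libraries of dissociated adult testis (3 mouse, 3 opossum) and 20 bulk libraries of opossum testis were used. The deposited matrices hold estimated counts per gene and barcode that are not all whole; Cell Ranger 6.0.1 is named in the submitters' processing notes, and the step that made them fractional is not given in the sources used here. The authors' bulk tables hold TPM, FPKM and coverage (signal) per gene; HISAT2 2.2.1, SAMtools 1.12 and StringTie 2.1.4 are named in the submitters' processing notes. Aligned bulk coverage came to 2.90 to 7.12 gigabases, and 16 of the 20 libraries were polyA-selected.

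Counts were summed per library and class of cells (at least 10 cells), rounded and tested in edgeR 4.0.16 (TMM, quasi-likelihood, Benjamini-Hochberg), with library as a block within species; DESeq2 1.42.0 was an alternative. TPM was tested in limma 3.58.1 on log2(TPM + 1) for genes at 1 TPM or more in 2 libraries, so fold changes of low genes are understated. Genes were matched by symbol (10751 genes). Doublets were not removed; an alternative left out the 8% of each library with the highest Scrublet scores. On simulated data edgeR found 62% to 96% of 8-fold changes and 0% to 13% of 2-fold changes across the 6 comparisons. False calls made up 0% to 8.40% of the calls, with 8.40% for the species comparison and 7.37% for opossum against stromal cells. Few genes were changed in the simulation and it held no library effect, so these shares need not carry over to the real comparisons. Named genes are those passing the test with at least 20 CPM and no overlap between libraries, by size of difference (15 higher and 5 lower against other cells, otherwise 8 and 8), plus up to 4 genes of each list chosen for role; 1 gene that the rule names is not reported here. The cells and lists were chosen with earlier results of these data known. Software was R 4.3.3, Python 3.11.15 and scanpy 1.11.5.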

Additional observations from a re-analysis of the deposited data

Results flagged for a closer look

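The change from other cells to endothelial cells differed between the species, by the interaction test in edgeR, in 1083 of 9730 matched genes (11.1%). The 28 of them given here were named or chosen for the text, 16 through this same test, so their number is not a result. The change is given as log2 in opossum minus that in mouse. It was larger in opossum for PAQR6 (13.94), KCNK10 (13.00), DKK2 (11.99), XPNPEP2 (11.71), BDKRB2 (11.71), NEB (11.60), GRM3 (11.20), FGL2 (11.13), RELN (3.79), GATA2 (5.47), SELE (4.90) and EFNB2 (3.34). It was larger in mouse for TMEM252 (-13.76), MAL (-13.40), SLC28A2 (-12.93), CPLX2 (-12.86), TRPC6 (-12.67), SNCG (-12.17), FGFR3 (-11.98), GREB1 (-11.97), CLDN5 (-4.46), MFSD2A (-8.25), SLC7A5 (-6.42), PALMD (-7.77), SLCO2A1 (-7.96), EDN1 (-6.04), CAVIN3 (-5.43) and ID3 (-3.53). The 16 genes with the widest values had no count in the endothelial cells of one species, so these sizes depend on the fit and are not bounds. Opossum replicates held 23, 43 and 19 cells with lymphatic genes against 0, 0 and 2 in mouse, and the part of this make-up in the values of RELN and other genes was not tested.

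In the adult polyA bulk libraries of opossum, CCL21 was at 42.0 TPM in the highest of 6 libraries, far from the others. It was 1 of 28 groups examined in this way, where chance alone gives about 1 in 20.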

How the results depend on the processing

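A library with under 10 selected cells leaves the fit, so some settings change cells and libraries together. The limit on germ cell markers was set on the selected cells only, so lower calls of germ cell genes follow in part from it. With germ cell markers under 1%, which leaves 20, 16 and 9 mouse cells and drops mouse replicate 3, the counts were 6891 (mouse against other cells, 1893 higher and 4998 lower), 2359 (mouse against stromal cells), 1624 (species) and 2389 (interaction, 1550 larger in opossum and 839 in mouse). Without the deep barcodes they were 4822, 1578 (opossum against stromal cells) and 2038 (interaction); without mural and lymphatic cells as well (both settings were added once the values had been seen), they were 5112 (1926 higher, 3186 lower) and 1361 (mouse and opossum against other cells), 783 (opossum against stromal cells), 1029 (species) and 613 (interaction), all but the first without opossum replicate 1. Without a low-count filter they were 2326 and 4425 (mouse stromal, species) and 1571 (opossum stromal). Mouse stromal calls numbered 3896 without the highest Scrublet scores and 2549 with at least 20 cells per library, both of which drop mouse replicate 3. Opossum stromal calls numbered 886 in DESeq2, 1431 with at least 2 different selection genes and 788 with counts rounded up.

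Leaving out 1 library gave 553 to 1460 and 1945 to 4157 calls against other cells in mouse and opossum, 191 to 2549 and 0 to 1298 against stromal cells, 642 to 1149 for the interaction and 5027 to 9914 in bulk. Without the replicate block the counts were 992 in mouse, 1625 and 820 against stromal cells and 554 for the interaction. With a replicate block the species comparison had 2581 calls and bulk 4336. Same-numbered mouse and opossum libraries had deviations with r of -0.0143, 0.0891 and -0.031, and differently numbered ones between -0.0997 and 0.0775. These values show no clear pairing by number, but a shared batch was not tested.

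Of the gene values under alternatives, 2716 kept direction and call, 118 lost and 7 gained the call, and 11 reversed. In opossum CCL21 (-2.63), PTX3 (-7.56) and RELN (-1.72) reversed without lymphatic and mural cells, which removes cells chosen by CCL21 and RELN, and the GRM3 interaction became -3.23. Id1 against mouse stromal cells, not called, became 0.15 with 2 selection genes, 0.84 with germ markers under 1%, 0.95 without the deep barcodes, 1.118 without mural and lymphatic cells, and -0.75 to 0.25 when 1 mouse library was left out. CLDN5 in bulk became -0.011 with the block. Except where a construction is named, the cause was not tested. With 15 cells in mouse replicate 3, low genes there are limited by depth.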
